A study of Saccharomyces cerevisiae with 24 samples.

Results

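The interaction of genotype and rapamycin was examined in Saccharomyces cerevisiae: for every gene, the change with rapamycin in cells without RPH1 minus the change in wild type cells. It rests on the 8 RNA-seq libraries among the 24 samples of the series, chosen by their labels, and on all genes counted in them. The 4 groups of 2 libraries were rph1 deletion cells with rapamycin, untreated rph1 deletion cells, wild type cells with rapamycin and untreated wild type cells. All were of BY4741, a laboratory strain of mating type a with auxotrophic markers. The deletion was carried by both deletion groups, so it is present with and without the drug. The other 16 samples are chromatin immunoprecipitation and input samples. Of these, only the authors' gene lists for FLAG-tagged Rph1, made in untreated and in rapamycin-treated cells, were used here. The sample labels give neither a dose of rapamycin nor a time, though the deposited count tables carry 2 h in their names for the rapamycin libraries and 0 h for the untreated ones. Nothing says whether the 2 libraries of a group came from separate cultures or whether the deletion was 1 clone. P-values therefore measure only the spread between these libraries.

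Rapamycin inhibits TORC1, the kinase complex that couples nutrient supply to growth in yeast. When TORC1 is inhibited, genes for ribosomal proteins and ribosome assembly are turned down, and genes for the use of poor nitrogen sources, respiration, stress protection and autophagy are turned up. Rph1 is a zinc finger protein of the JmjC family that removes methyl groups from histone H3 lysine 36 and is known as a transcriptional repressor, among others of the DNA repair gene PHR1 and of autophagy genes. An interaction asks whether the drug moves a gene by the same amount in both genotypes. A positive value means that the gene rose more, or fell less, in the deletion; a negative value means that it rose less, or fell more.

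The libraries held 18037199 to 24769193 counts. Spearman correlations between the 2 libraries of a group were 0.985 to 0.995, and the untreated wild type pair was the least alike. Levels are given as CPM, the count scaled to a common library size, on TMM-scaled totals, and differences as log2 values with the standard error (SE) of the edgeR quasi-likelihood fit, n = 2 libraries per group. Adjusted p-values are Benjamini-Hochberg values over all 6169 genes tested. Of the marker genes of this strain, LEU2 had 0 counts in every library, URA3 and MET17 had 0 or 1, and the alpha pheromone gene MF(ALPHA)1 had 3 to 12. The alpha pheromone receptor STE2, which cells of mating type a use, had 9479 to 21944. Some alpha-cell genes were not silent. MF(ALPHA)2, the other alpha pheromone gene, had 92 to 163 counts, and SAG1 had 627 to 2326. STE3 had 230 to 360 counts in the deletion libraries and 39 to 95 in the wild type libraries. In bulk RNA, fewer cells that use a gene and less of its RNA in each cell cannot be told apart.

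RPH1 itself (chromosome V, 523369 to 525759 in the R64 assembly) was nearly absent from the deletion libraries. It had 3.66 and 1.83 CPM in deletion cells with rapamycin and 1.46 and 2.36 CPM in untreated deletion cells, against 75.4 and 100.4 CPM in wild type cells with rapamycin and 67.8 and 85.1 CPM in untreated wild type cells. The remaining reads in the deletion were far below every wild type library, with and without the drug. The RPH1 interaction was 0.33 ± 0.47, adjusted p = 0.694, from a level too low in the deletion for the value to carry weight; it was -0.25 (adjusted p = 0.775) without deletion rapamycin replicate 1. Its neighbours on chromosome V showed no interaction past the threshold. ADK2, an adenylate kinase of mitochondria, had 0.25 ± 0.19, adjusted p = 0.424. CCA1, the enzyme that adds the CCA end to transfer RNAs, had 0.21 ± 0.17, adjusted p = 0.446. In the same edgeR fit, deletion minus wild type for ADK2 was 0.78 ± 0.13 with rapamycin (adjusted p = 0.005). Untreated, that difference was 0.52 ± 0.14 (adjusted p = 0.0585). For CCA1 it was 0.05 ± 0.12 with rapamycin and -0.17 ± 0.12 untreated.

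The rapamycin response was flatter in the deletion than in the wild type. Of 6169 genes, 434 were called higher in the interaction (7.04% of those tested) and 375 lower (6.08%), at an adjusted p under 0.05. Together that is 809 genes, or 13.1%, of which 134 higher and 120 lower differed by more than 2-fold. The typical called gene differed by 0.84 on the log2 scale, and the smallest called difference was 0.40. Across all genes, the log2 change with rapamycin had a standard deviation of 0.948 in the deletion and 1.23 in the wild type. The deletion change was the smaller in size in 746 of the 809 called genes (92.2%), and in 4305 of all 6169 (69.8%).

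The number of calls changed when single libraries were left out. Such a fit has 1 library in a group and fewer libraries to estimate the spread from. The smaller number of libraries and the content of the one left out cannot be told apart in these counts. The 434 higher and 375 lower genes kept their sign in every such fit. Without deletion rapamycin replicate 1, 45 genes were higher and 51 lower; without replicate 2 of that group, 152 and 125. Without untreated deletion replicate 1 there were 116 and 130, and without replicate 2, 196 and 161. Without wild type rapamycin replicate 1 there were 338 and 226, and without replicate 2, 166 and 159. Leaving out untreated wild type replicate 1 gave 525 and 495, and leaving out replicate 2 gave 272 and 242. Where the paragraphs below give a range for a list, it is over these 8 fits. The counts of called genes in a list stand beside 7.04% of all genes called higher and 6.08% called lower.

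Most of the called genes moved the same way in both genotypes and by a different amount. Rapamycin alone moved 1767 genes up (28.6%) and 1772 down (28.7%) in the deletion, and 2145 up (34.8%) and 2092 down (33.9%) in the wild type. Among the 434 genes higher in the interaction, 327 fell in both genotypes. A further 78 fell in the wild type without passing the test in the deletion, and 11 rose in the deletion and fell in the wild type. Another 15 rose in the deletion alone, and 3 rose in both. Among the 375 lower genes, 217 rose in both genotypes, and 106 rose in the wild type without passing the test in the deletion. Another 17 fell in the deletion and rose in the wild type, 26 fell in the deletion alone, and 9 fell in both.

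**Figure D1:**
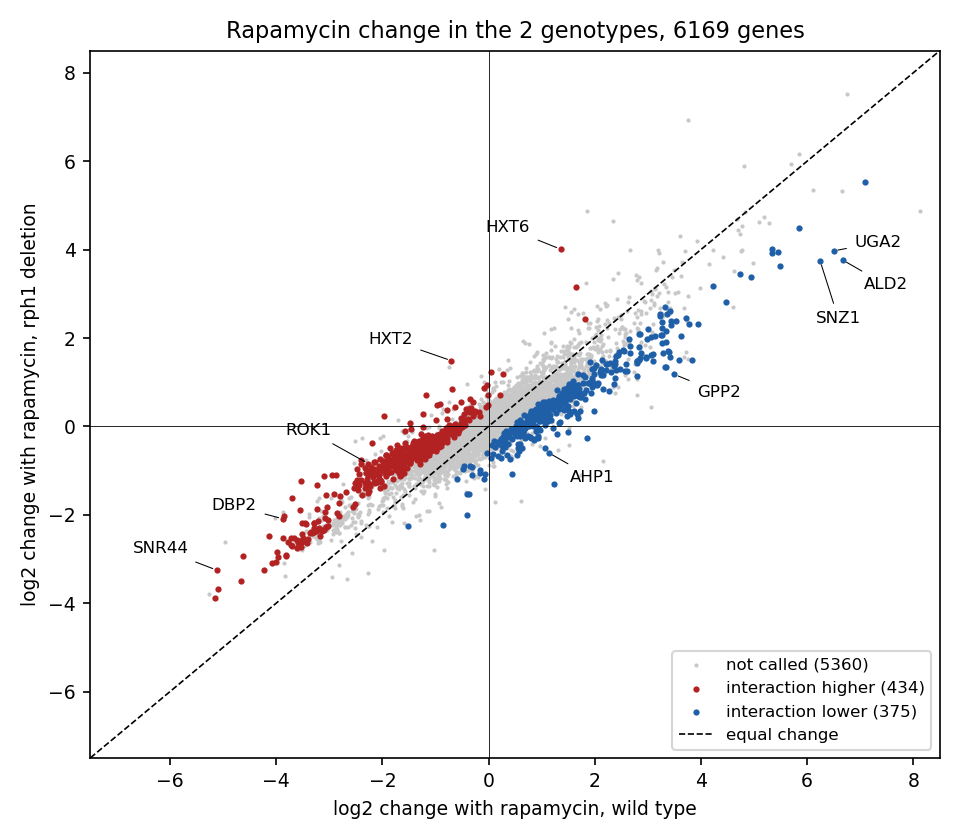
Log2 change with rapamycin in the rph1 deletion (vertical axis) against the wild type (horizontal axis) for 6169 genes, with genes called in the interaction in color and equal change as a dashed line. The 434 genes called higher lie above the line, mostly among genes that fell, and the 375 called lower lie below it, mostly among genes that rose.

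Among genes that fell, the gap widened with the size of the response; among genes that rose, it did so only up to a point. In the 44 genes whose mean change over the genotypes was -3 or below, the median change was -2.72 in the deletion and -3.71 in the wild type, and 30 were called higher. In the 174 genes between -3 and -2, the medians were -2.18 in the deletion and -2.90 in the wild type, and 47 were called higher. Among the 3025 genes whose mean change lay within 0.5 of 0, the medians were -0.0076 in the deletion and 0.0197 in the wild type, with 74 called higher and 108 lower. In the 519 genes with a mean change between 1 and 2, the medians were 1.16 in the deletion and 1.51 in the wild type, with 90 called lower. In the 154 genes between 2 and 3, they were 2.16 in the deletion and 2.67 in the wild type, with 48 called lower. In the 79 genes above 3, they were 3.67 in the deletion and 3.78 in the wild type, with 18 called lower; the median interaction there was -0.45, against -0.57 in the bin before it. The bins were cut on the same changes that the interaction subtracts, so these values describe the response and test nothing.

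The genes called higher differed between genotypes mainly under the drug. Deletion minus wild type was larger in size with rapamycin than without in 392 of the 434 (90.3%), with a median of 0.68 with rapamycin and -0.19 untreated. The deletion and wild type libraries overlapped in 9 of these genes with rapamycin and in 139 untreated. The genes called lower were more mixed. In 235 of 375 (62.7%) the genotypes differed more with rapamycin, and in 140 they differed more before it. The medians were -0.53 with rapamycin and 0.27 untreated, and the libraries overlapped in 27 genes with rapamycin and in 82 untreated. These differences are made of the same libraries as the interaction and are given as a description.

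**Figure D2:**
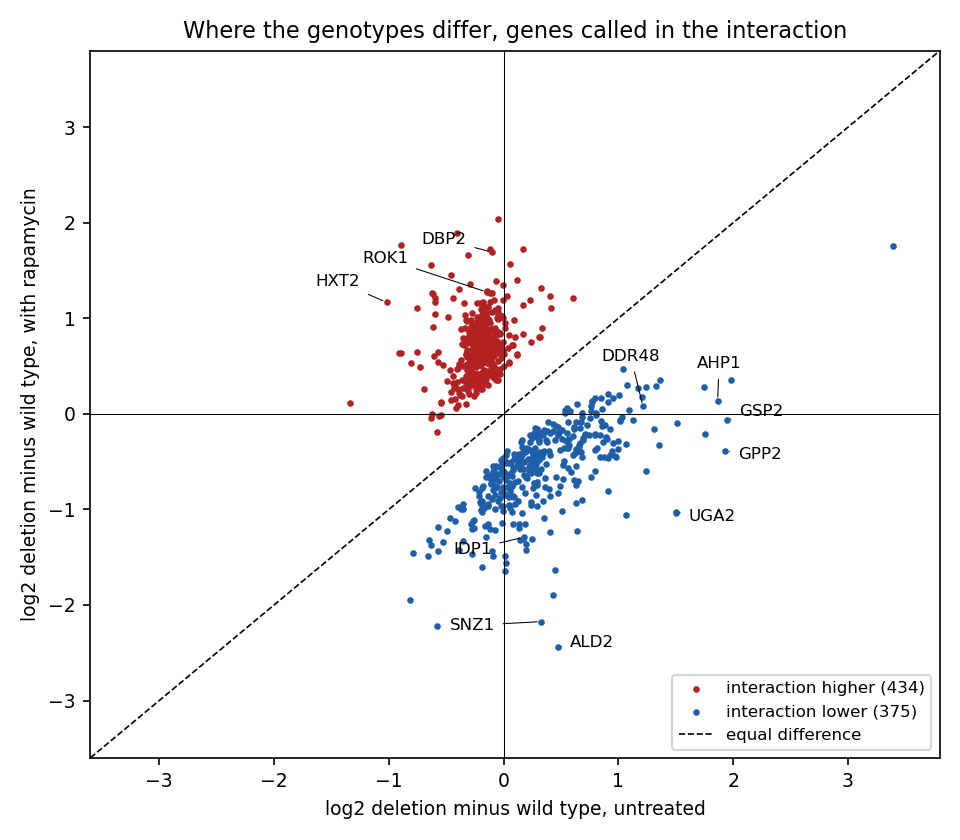
Log2 difference of deletion minus wild type with rapamycin (vertical axis) and untreated (horizontal axis) for the 809 genes called in the interaction. Genes called higher gather above 0 on the vertical axis and just left of 0 on the horizontal one; genes called lower spread from ALD2 and SNZ1, low with rapamycin, to AHP1, GSP2 and GPP2, high in the untreated deletion.

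Ribosomal protein genes, which encode the protein parts of the cytosolic ribosome, fell less in the deletion. Of 138 tested, 52 were called higher (37.7%) and 0 lower, and 137 lay above 0. The median interaction was 0.77, against 0.0067 over all genes, from a median change of -2.30 in the deletion and -3.04 in the wild type. Large subunit genes (29 of 81 called) and small subunit genes (23 of 57 called) both had a median of 0.77. As a share of all counts, ribosomal protein genes made up 5.11% and 4.59% in deletion cells with rapamycin and 19.3% and 20.2% in untreated deletion cells. In wild type cells they made up 3.50% and 2.75% with rapamycin and 21.0% and 22.2% untreated. With rapamycin both deletion libraries lay above both wild type libraries, and without it both lay below.

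RPS3, a small subunit protein near the entry site of messenger RNA (chromosome XIV, 302680 to 303402), had 543 and 455 CPM in deletion cells with rapamycin and 2901 and 2872 CPM in untreated deletion cells, against 296 and 212 CPM in wild type cells with rapamycin and 3321 and 3335 CPM in untreated wild type cells. The deletion libraries were the higher with rapamycin and the lower without it. The interaction was 1.18 ± 0.24, adjusted p = 0.0217, with a rapamycin change of -2.53 in the deletion and -3.71 in the wild type. RPS22A, another small subunit protein, changed by -3.24 in the deletion and -4.22 in the wild type (interaction 0.98 ± 0.19, adjusted p = 0.0166). In the large subunit, RPL18B had an interaction of 0.89 ± 0.16, adjusted p = 0.0145, and RPL22A, the scarcest of those named, one of 1.24 ± 0.20, adjusted p = 0.0109. The largest in the family was RPL9A, named after its values were seen, at 1.26 ± 0.25, adjusted p = 0.019. RPS28B was the only member below 0, at -0.78 ± 0.36, adjusted p = 0.191. Many ribosomal protein genes are pairs of near-identical copies, and how the counting divided shared reads is not stated, so values of single copies are uncertain.

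The count of ribosomal protein genes moved widely when single libraries were left out. It was 0 without deletion rapamycin replicate 1, 5 without replicate 2, 2 without untreated deletion replicate 1 and 5 without replicate 2. It was 98 without wild type rapamycin replicate 1, 5 without replicate 2, 42 without untreated wild type replicate 1 and 7 without replicate 2; the last of these also had 1 called lower. With all libraries, DESeq2 called 105 and limma-voom 40, and other scalings in edgeR called 46 to 67. The median stayed between 0.56 and 0.97 in the 8 fits with a library left out. The calls of RPS3, RPS22A, RPL18B and RPL9A were each lost in 3 or 4 of them (adjusted p up to 0.0993), and that of RPL22A only without deletion rapamycin replicate 1 (adjusted p = 0.0547).

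Genes for ribosome assembly, whose products process ribosomal RNA and build the subunits but are not part of the mature ribosome, held more calls than any other list. Of 146 tested, 112 were called higher (76.7%), 0 lower, and 145 lay above 0; the exception was SNU13. They made up 25.8% of all genes called higher, beside 12.0% for ribosomal protein genes. The median change with rapamycin was -0.76 in the deletion and -1.71 in the wild type, and the median interaction was 0.93. The small subunit processome (56 of 71 called, median 0.96) and the large subunit assembly factors (56 of 75 called, median 0.91) were alike in this. Their summed share of counts was 2.19% and 2.25% in deletion cells with rapamycin and 2.82% and 3.23% in untreated deletion cells, against 1.32% and 1.26% in wild type cells with rapamycin and 2.87% and 3.60% in untreated wild type cells.

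ROK1 (chromosome VII, 182390 to 184084), an RNA helicase of small subunit maturation, had 98.9 and 87.0 CPM in deletion cells with rapamycin and 162 and 172 CPM in untreated deletion cells, against 39.6 and 37.3 CPM in wild type cells with rapamycin and 172 and 196 CPM in untreated wild type cells. Deletion cells kept more of it under the drug, and the genotypes were close without it. The interaction was 1.42 ± 0.15, adjusted p = 0.00622. UTP23, another small subunit processome gene, fell in both genotypes, with a log2 change of -0.65 in the deletion and -1.94 in the wild type (interaction 1.29 ± 0.13, adjusted p = 0.00622). RRP8, a methyltransferase of the large ribosomal RNA, had 1.37 ± 0.17, adjusted p = 0.00707, and SDA1, needed for large subunit maturation, had 1.29 ± 0.16, adjusted p = 0.00669. The RNA helicase gene DBP2 had the largest value in these lists, with 165 and 167 CPM in deletion cells with rapamycin and 609.7 and 806 CPM in untreated deletion cells, against 43.4 and 59.7 CPM in wild type cells with rapamycin and 597 and 917 CPM in untreated wild type cells, and an interaction of 1.79 ± 0.33, adjusted p = 0.0154.

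With deletion rapamycin replicate 1 left out, 18 assembly genes were called higher. The count was 56 without replicate 2 of that group, 51 and 79 without untreated deletion replicates 1 and 2, 95 and 60 without wild type rapamycin replicates 1 and 2, and 133 and 84 without untreated wild type replicates 1 and 2. The medians lay between 0.78 and 1.08. ROK1, UTP23, RRP8 and SDA1 kept their calls in all 8 fits. DBP2 lost its call without either deletion rapamycin library and without untreated deletion replicate 1 (adjusted p = 0.0520 to 0.0604).

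**Figure D3:**
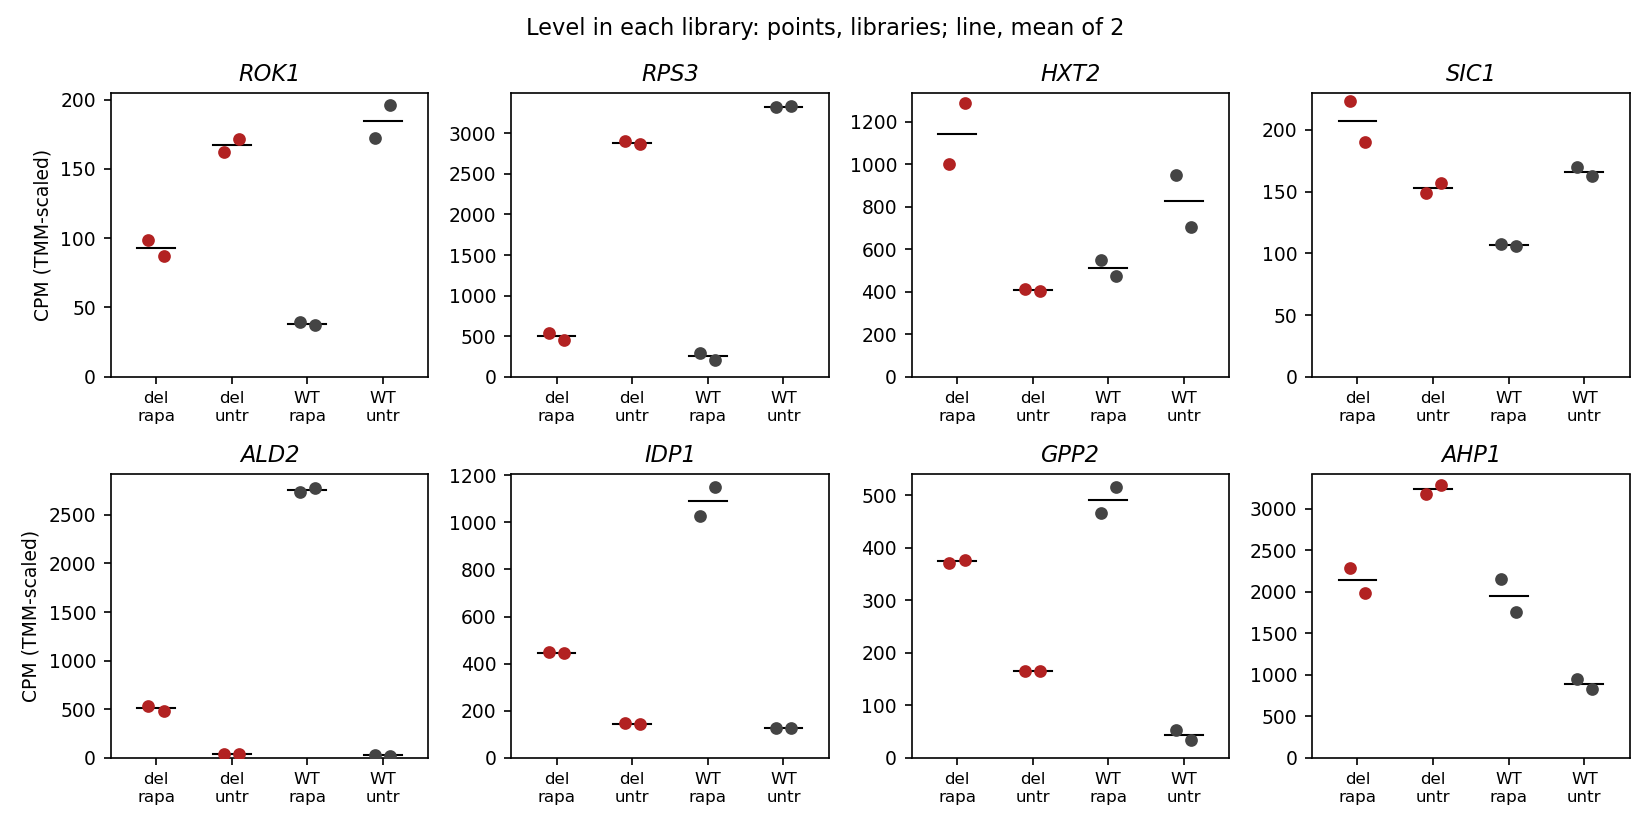
Level of 8 genes in CPM in each library (points) with the mean of 2 (line); deletion cells (del) and wild type cells (WT), with rapamycin (rapa) and untreated (untr). ROK1, RPS3, HXT2 and SIC1 were called higher in the interaction, and ALD2, IDP1, GPP2 and AHP1 lower; GPP2 and AHP1 differ most between the untreated genotypes.

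Other lists of the translation machinery held fewer calls, all of them higher, beside the 7.04% of all genes called higher. Of 19 RNA polymerase I genes, which transcribe ribosomal RNA, 5 were higher (26.3%) and 0 lower (median 0.19; 1 to 7 higher with a library left out). RPA49, a polymerase I subunit, had 166 and 151 CPM in deletion cells with rapamycin and 312 and 336 CPM in untreated deletion cells, against 84.0 and 78.7 CPM in wild type cells with rapamycin and 341 and 418 CPM in untreated wild type cells, and its interaction was 1.19 ± 0.17, adjusted p = 0.00839. RPA135, the second largest subunit, had 1.13 ± 0.17, adjusted p = 0.00988. Of 19 RNA polymerase III genes, RPC53 (0.84) and RPC34 (0.77) were higher (10.5%; median 0.28; 0 to 4). Among 41 initiation and elongation factors, 8 were higher (19.5%) and 0 lower (median 0.46; 1 to 11), those of smallest p being RPG1, a subunit of initiation factor eIF3, at 1.24 ± 0.17, adjusted p = 0.00779, and PRT1, another subunit, at 0.87 ± 0.14, adjusted p = 0.0103. Of 22 cytosolic aminoacyl-tRNA synthetases, which charge transfer RNAs, 3 were higher (13.6%; median 0.25; 0 to 2), among them GLN4 (0.93) and FRS1 (0.62). The 20 regulators of ribosomal gene transcription, such as IFH1 and SFP1, had 0 calls either way in the main edgeR fit. In that fit 1 member had an unadjusted p under 0.05, and the median was 0.22. The other tests and settings called 0 to 2. RPG1 and RPA49 kept their calls in all 8 fits. RPA135, GLN4 and PRT1 lost theirs only without deletion rapamycin replicate 1 (adjusted p = 0.0518, 0.0518 and 0.0572), RPC53 in 3 fits (up to 0.0572), RPC34 in 5 (up to 0.133) and FRS1 in all 8 (0.0599 to 0.170).

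Small nucleolar RNAs guide the modification and cutting of ribosomal RNA. Entries for small nucleolar and spliceosomal RNAs were taken as those with an identifier starting with snR. Of these 74, 13 were higher (17.6%) and 1, SNR70, was lower (1.35%), beside 7.04% and 6.08% of all genes. Their median interaction was 0.49, from a median change of -1.19 in the deletion and -1.80 in the wild type. SNR70 (-0.83 ± 0.21, adjusted p = 0.0428), at a mean of 8.47 CPM, lost its call with any library left out. The spliceosomal RNA LSR1 is not among the 74 and was higher (1.56 ± 0.31, adjusted p = 0.0189). The LSR1 call was lost without deletion rapamycin replicate 1, untreated deletion replicate 1 or wild type rapamycin replicate 1. SNR37, a guide of pseudouridylation, had 24.0 and 14.5 CPM in deletion cells with rapamycin and 52.3 and 66.6 CPM in untreated deletion cells, against 4.49 and 4.91 CPM in wild type cells with rapamycin and 62.2 and 60.6 CPM in untreated wild type cells (interaction 2.08 ± 0.33, adjusted p = 0.0103). SNR44 had 7.96 and 6.05 CPM in deletion cells with rapamycin and 65.9 and 67.3 CPM in untreated deletion cells, against 3.20 and 2.62 CPM in wild type cells with rapamycin and 98.5 and 105 CPM in untreated wild type cells (interaction 1.87 ± 0.21, adjusted p = 0.00627). In both, the deletion libraries stood above the wild type ones under the drug; without it they overlapped for SNR37 and were lower in the deletion for SNR44. SNR44 lies in the intron of RPS22B, a ribosomal protein gene, so its reads may be partly those of its host. SNR30, needed for cutting of the small subunit RNA, had 1.84 ± 0.38, adjusted p = 0.0212, lost without deletion rapamycin replicate 1, untreated deletion replicate 1 or wild type rapamycin replicate 1 (adjusted p up to 0.0691). Levels of these short RNAs, 0.353 to 81.9 CPM on average, depend on how the libraries were made, which the labels leave general. YMR141W-A, an entry with no name in the gene table, had 1.86 ± 0.32, adjusted p = 0.0121, lost with deletion rapamycin replicate 1 left out (adjusted p = 0.0572).

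Of 36 genes of purine and pyrimidine synthesis, 9 were higher (25%) and 1, URA10, lower (median 0.34; 0 to 12 higher with a library left out). GUA1, which makes GMP, had 733 and 632 CPM in deletion cells with rapamycin and 1229.9 and 1127 CPM in untreated deletion cells, against 423 and 367 CPM in wild type cells with rapamycin and 1313 and 1488 CPM in untreated wild type cells (interaction 1.04 ± 0.19, adjusted p = 0.0144). PRS1, which makes the sugar phosphate that nucleotides are built on, had 0.86 ± 0.17, adjusted p = 0.0167. With a library left out, GUA1 lost its call in 2 fits (adjusted p up to 0.0686), PRS1 in 4 (up to 0.0770) and URA10 in 6 (up to 0.0939).

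Where the mean level was 10 CPM or more, the glucose transporter genes HXT6 and HXT2 had the largest positive interactions. HXT6, a high-affinity glucose transporter, had 75.8 and 64.7 CPM in deletion cells with rapamycin and 5.05 and 3.62 CPM in untreated deletion cells, against 25.7 and 15.7 CPM in wild type cells with rapamycin and 12.4 and 4.19 CPM in untreated wild type cells, and the interaction was 2.65 ± 0.63, adjusted p = 0.0332. It is nearly identical in sequence to its neighbour HXT7, which had 1.48 ± 0.59, adjusted p = 0.136, so the division of reads between them is uncertain, and the HXT6 call was lost in 5 of 8 fits with a library left out (adjusted p = 0.0772 to 0.114). HXT2 (chromosome XIII, 288079 to 289704), another high-affinity transporter, had 999.8 and 1288 CPM in deletion cells with rapamycin and 411 and 406 CPM in untreated deletion cells, against 547 and 472 CPM in wild type cells with rapamycin and 951 and 704 CPM in untreated wild type cells. It rose in the deletion and fell in the wild type, with an interaction of 2.19 ± 0.25, adjusted p = 0.00631, and kept its call in all 8 fits. Other members of the 22 glucose transporters and sensors did not pass the test, and the median was 0.24. YHB1, a flavohemoglobin that detoxifies nitric oxide, changed by -0.77 on the log2 scale in the deletion and by -2.41 in the wild type (interaction 1.64 ± 0.24, adjusted p = 0.0088), also in all 8 fits. PHO3, an acid phosphatase, had 1.65 ± 0.25, adjusted p = 0.00954, lost with deletion rapamycin replicate 1 left out (adjusted p = 0.0518).

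Calls among cell wall genes went both ways. In that list, 6 of 42 genes were higher (14.3%) and 5 lower (11.9%), with a median of -0.26. The 6 were CTS1, DSE1, DSE2, DSE4, EGT2 and PIR1. The 5 lower were CRH1, EXG2, SCW10 and YGP1, which act on or in the wall, and TRS65. Of the 6 higher, all but PIR1 are known to act in the separation of daughter from mother cells, and PIR1 encodes a wall protein. DSE1 had 785 and 688 CPM in deletion cells with rapamycin and 309.8 and 317 CPM in untreated deletion cells, against 398 and 369.7 CPM in wild type cells with rapamycin and 383 and 357 CPM in untreated wild type cells. It rose in the deletion, where both drug libraries stood above all others, and its interaction was 1.18 ± 0.15, adjusted p = 0.00716. PIR1 fell by 1.57 on the log2 scale in the wild type and did not pass the test in the deletion, at -0.11 (interaction 1.46 ± 0.19, adjusted p = 0.00756). EGT2 had an interaction of 1.39 ± 0.19, adjusted p = 0.00779, DSE2 of 0.96 ± 0.21, adjusted p = 0.0237, CTS1 of 0.83 ± 0.22, adjusted p = 0.0453 and DSE4 of 0.74 ± 0.20, adjusted p = 0.0475. DSE3, which is not in the list and rose in the deletion but fell in the wild type, had 1.42 ± 0.16, adjusted p = 0.00627.

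In the list of 26 cyclins and G1 to S genes, PCL9 and SIC1 were higher (7.69%) and CLN1, CLN2 and SWE1 lower (11.5%), beside 7.04% and 6.08% of all genes, with a median of 0.08. SIC1, the inhibitor that holds back the S phase kinase (chromosome XII, 286820 to 287674), had 224 and 190.1 CPM in deletion cells with rapamycin and 149 and 157 CPM in untreated deletion cells, against 108 and 106 CPM in wild type cells with rapamycin and 169.7 and 162 CPM in untreated wild type cells. It rose in the deletion and fell in the wild type, with no overlap of the genotypes under the drug (interaction 1.07 ± 0.14, adjusted p = 0.00771). CLN2, a G1 cyclin, had 107 and 110.1 CPM in deletion cells with rapamycin and 123 and 139 CPM in untreated deletion cells, against 190.1 and 207 CPM in wild type cells with rapamycin and 116 and 129.8 CPM in untreated wild type cells. Wild type cells with rapamycin stood above the other groups (interaction -0.96 ± 0.15, adjusted p = 0.00919), and its paralog CLN1 had -1.13 ± 0.26, adjusted p = 0.0297. SWE1, the kinase that restrains entry into mitosis, had -0.72 ± 0.19, adjusted p = 0.0433, and the cyclin gene PCL9 had 1.15 ± 0.20, adjusted p = 0.0123. CTS1, DSE2, DSE4, EGT2, PCL9, CLN1 and SWE1 were named after their values were seen. DSE1, DSE3, PIR1, EGT2, SIC1 and PCL9 kept their calls in all 8 fits with a library left out. CLN2 lost its call without deletion rapamycin replicate 1 (adjusted p = 0.0518), CLN1 in 3 fits (up to 0.102), DSE2 in 5 (up to 0.0969), SWE1 and DSE4 in 7 (up to 0.144 and 0.158), and CTS1 in all 8 (0.0607 to 0.163). The proportion of cells at each stage of the cycle was not measured, and its part in these values was not tested.

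Among the 10 largest negative interactions at 10 CPM or more were genes that differed mainly under the drug and genes that differed mainly before it. ALD2 (chromosome XIII, 601562 to 603082), an aldehyde dehydrogenase, had 531 and 483 CPM in deletion cells with rapamycin and 39.9 and 34.8 CPM in untreated deletion cells, against 2739.5 and 2778 CPM in wild type cells with rapamycin and 32.3 and 21.9 CPM in untreated wild type cells. Rapamycin raised it 13.6-fold in the deletion and 102-fold in the wild type, and the interaction was -2.91 ± 0.26, adjusted p = 0.00554. SNZ1, an enzyme of vitamin B6 synthesis, had 266 and 317 CPM in deletion cells with rapamycin and 22.6 and 20.9 CPM in untreated deletion cells, against 1139 and 1492 CPM in wild type cells with rapamycin and 15.8 and 18.8 CPM in untreated wild type cells, for an interaction of -2.50 ± 0.23, adjusted p = 0.00554. In both genes the untreated genotypes were close and the drug-treated deletion stayed far below the drug-treated wild type. GPP2, a glycerol phosphatase of the osmotic stress response, showed another form, with 372 and 378 CPM in deletion cells with rapamycin and 166 and 166 CPM in untreated deletion cells, against 467 and 516 CPM in wild type cells with rapamycin and 53.2 and 33.8 CPM in untreated wild type cells. Here the untreated deletion already stood above the untreated wild type, and the drug-treated groups lay closer (interaction -2.32 ± 0.26, adjusted p = 0.00627). The same form held for GTT1, a glutathione transferase, at -1.97 ± 0.25, adjusted p = 0.00752, and for GSP2, a copy of the nuclear transport GTPase, at -2.01 ± 0.28, adjusted p = 0.00779. Also among the 10 largest were SHC1, a sporulation factor of chitin synthesis, at -1.84 ± 0.18, adjusted p = 0.00583, and the membrane protein gene YPL264C, at -2.09 ± 0.21, adjusted p = 0.00622. Every gene of this paragraph kept its call in all 8 fits with a library left out.

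Rapamycin raised 28.6% of all genes in the deletion and 34.8% in the wild type. Of 44 genes repressed by good nitrogen sources, 37 rose in the deletion and 36 in the wild type. In the interaction 4 were higher (9.09%) and 5 lower (11.4%), beside 7.04% and 6.08% of all genes, and the median was -0.03. Those lower included the pathway that takes up and breaks down gamma-aminobutyrate: the permease UGA4, the transaminase UGA1 and the dehydrogenase UGA2. UGA2 had 1853 and 1711 CPM in deletion cells with rapamycin and 131 and 96.5 CPM in untreated deletion cells, against 3429 and 3857 CPM in wild type cells with rapamycin and 44.5 and 35.8 CPM in untreated wild type cells (interaction -2.53 ± 0.25, adjusted p = 0.00622), UGA1 had -1.86 ± 0.24, adjusted p = 0.00771 and UGA4 had -1.55 ± 0.17, adjusted p = 0.00622. The proline permease PUT4 had -1.50 ± 0.41, adjusted p = 0.0492. Higher were DUR12 (DUR1,2), which breaks down urea, at 1.50 ± 0.16, adjusted p = 0.00622; the transporter genes OPT2 at 0.96 ± 0.16, adjusted p = 0.0116 and ATO3 at 1.37 ± 0.14, adjusted p = 0.00622; and the asparaginase gene ASP1 at 0.62 ± 0.14, adjusted p = 0.0297. DUR12 had 504 and 448 CPM in deletion cells with rapamycin and 49.7 and 58.0 CPM in untreated deletion cells, against 224 and 247 CPM in wild type cells with rapamycin and 75.6 and 75.2 CPM in untreated wild type cells, so that the drug-treated deletion stood above the drug-treated wild type while the untreated deletion stood below. The induction of the general amino acid permease GAP1 (5.94 in the deletion, 5.70 in the wild type) and of the ammonium permease MEP2 (6.16 in the deletion, 5.84 in the wild type) gave interactions of 0.24 ± 0.27, adjusted p = 0.597 for GAP1 and 0.32 ± 0.29, adjusted p = 0.507 for MEP2. UGA4, PUT4, DUR12, OPT2, ASP1, GAP1 and MEP2 were named after their values were seen. UGA1, UGA2, UGA4, DUR12 and ATO3 kept their calls with any library left out, OPT2 lost it without deletion rapamycin replicate 1 (adjusted p = 0.0518), and ASP1 and PUT4 lost theirs in 7 of 8 fits (up to 0.117 and 0.137).

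Of 69 genes of amino acid synthesis, 17 were lower (24.6%; 2 to 16 with a library left out) and 1, ASC1, was higher; ASC1 encodes a ribosome-bound protein, also counted with the small subunit. The median change was 0.32 in the deletion and 0.92 in the wild type, and the median interaction was -0.36. The arginine pathway supplied 9 of the 17 (ARG1, ARG2, ARG3, ARG4, ARG56, ARG7, ARG8, CPA1 and ORT1). ORT1, the ornithine carrier of mitochondria, had 74.9 and 74.6 CPM in deletion cells with rapamycin and 34.3 and 32.9 CPM in untreated deletion cells, against 135 and 158 CPM in wild type cells with rapamycin and 33.4 and 34.1 CPM in untreated wild type cells (interaction -0.96 ± 0.13, adjusted p = 0.00779). LYS1, the last step of lysine synthesis, had 215 and 223 CPM in deletion cells with rapamycin and 81.3 and 73.9 CPM in untreated deletion cells, against 445 and 527 CPM in wild type cells with rapamycin and 71.5 and 64.8 CPM in untreated wild type cells (interaction -1.34 ± 0.16, adjusted p = 0.00669). HIS3, of histidine synthesis, was counted with the strain markers and is not among the 17. BY4741 carries HIS3 in a defective form, and its interaction was -1.10 ± 0.12, adjusted p = 0.00622. In 15 of the 17 the genotypes differed more with rapamycin, and the median difference of deletion minus wild type was -0.91 with rapamycin and 0.0023 untreated. ORT1, LYS1 and HIS3 kept their calls in all 8 fits.

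Of 31 genes of sulfate assimilation and methionine synthesis, 9 were lower (29.0%; 3 to 9 with a library left out) and 2, CYS4 and SAH1, were higher; 13 of the 31 lay above 0. MET14, the kinase of the second step, had 38.3 and 35.5 CPM in deletion cells with rapamycin and 57.5 and 46.7 CPM in untreated deletion cells, against 97.5 and 92.1 CPM in wild type cells with rapamycin and 49.5 and 41.8 CPM in untreated wild type cells; it fell in the deletion and rose in the wild type (interaction -1.56 ± 0.18, adjusted p = 0.00631). MET3, the first enzyme of the pathway, rose in the wild type and did not pass the test in the deletion (interaction -1.24 ± 0.15, adjusted p = 0.00707). All 9 differed more between genotypes with rapamycin than without. MET3 and MET14 kept their calls with any library left out. CYS4 (0.85) lost it in 2 fits (adjusted p up to 0.0697) and SAH1 (0.70) in all 8 (up to 0.144). In vitamin B6 and thiamine synthesis, 6 of 23 genes were lower (1 to 6) and 0 higher. The 6 were 26.1% of the list, beside 6.08% of all genes called lower, and included SNZ1 and SNZ2. SNZ2 had -1.16 ± 0.18, adjusted p = 0.00918. Its call was lost with deletion rapamycin replicate 1 left out, where the interaction was -1.18. SNZ2 and SNZ3 are near-identical copies, and how reads were divided between them is uncertain.

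Of 48 genes of the respiratory chain and ATP synthase, 14 were lower (29.2%) and 1, HAP4, was higher; the median change was 0.83 in the deletion and 1.33 in the wild type. ATP synthase subunits made up many of the 14, with ATP18 at -1.19 ± 0.20, adjusted p = 0.0114. CYC1, cytochrome c, had 78.3 and 74.0 CPM in deletion cells with rapamycin and 63.2 and 61.2 CPM in untreated deletion cells, against 164 and 145 CPM in wild type cells with rapamycin and 71.8 and 69.8 CPM in untreated wild type cells. Wild type cells with rapamycin stood above the other groups (interaction -0.84 ± 0.12, adjusted p = 0.00902). HAP4, the activator of respiratory genes and named after its values were seen, went the other way, with 316 and 439 CPM in deletion cells with rapamycin and 157 and 173 CPM in untreated deletion cells, against 291 and 259 CPM in wild type cells with rapamycin and 228 and 227 CPM in untreated wild type cells (interaction 0.92 ± 0.22, adjusted p = 0.0328). In 12 of the 14 lower genes the genotypes differed more with rapamycin (median -1.21 with rapamycin, -0.43 untreated). Without deletion rapamycin replicate 1 none of the 14 remained called, and ATP18 (adjusted p = 0.0582) and CYC1 (0.0518) were lost; in the other 7 fits the list had up to 19. HAP4 lost its call in 6 fits (up to 0.113).

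In the TCA and glyoxylate cycle, 8 of 28 genes were lower (1 to 10 with a library left out) and 0 higher, with a median of -0.39. The 8 made up 28.6% of the list, beside 6.08% of all genes called lower. IDP1 (chromosome IV, 334835 to 336121) encodes the isocitrate dehydrogenase of mitochondria that makes NADPH. It had 448 and 444 CPM in deletion cells with rapamycin and 146 and 142 CPM in untreated deletion cells. Wild type cells had 1029 and 1152 CPM with rapamycin and 127 and 127 CPM untreated. The untreated genotypes were close, and the drug-treated deletion was well below the drug-treated wild type (interaction -1.47 ± 0.14, adjusted p = 0.00554), in all 8 fits. KGD2, of the ketoglutarate dehydrogenase, had -0.71 ± 0.15, adjusted p = 0.0218, PYC1, pyruvate carboxylase, had -1.04 ± 0.28, adjusted p = 0.0492, and DLD3, a retrograde response gene, had -0.79 ± 0.21, adjusted p = 0.0457. With a library left out, KGD2 lost its call in 5 fits (adjusted p up to 0.0956), and PYC1 and DLD3 in 6 each (up to 0.161 and 0.152). Mitochondrial ribosomal proteins held few calls, with 3 of 74 higher, 1 lower and a median of 0.07; NAM9 had 0.49 ± 0.11, adjusted p = 0.0241 and RSM22 had -0.93 ± 0.20, adjusted p = 0.0243, lost in 7 and 3 fits (up to 0.104 and 0.0927). In glycolysis, ADH5 (-1.58 ± 0.23, adjusted p = 0.00878), GPM2 (-1.63 ± 0.35, adjusted p = 0.0234) and PFK26 were lower out of 31, with a median of -0.01; ADH5 lost its call in 1 fit (0.0518), GPM2 in 5 (up to 0.0993) and PFK26 in 7 (up to 0.147).

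**Figure D4:**
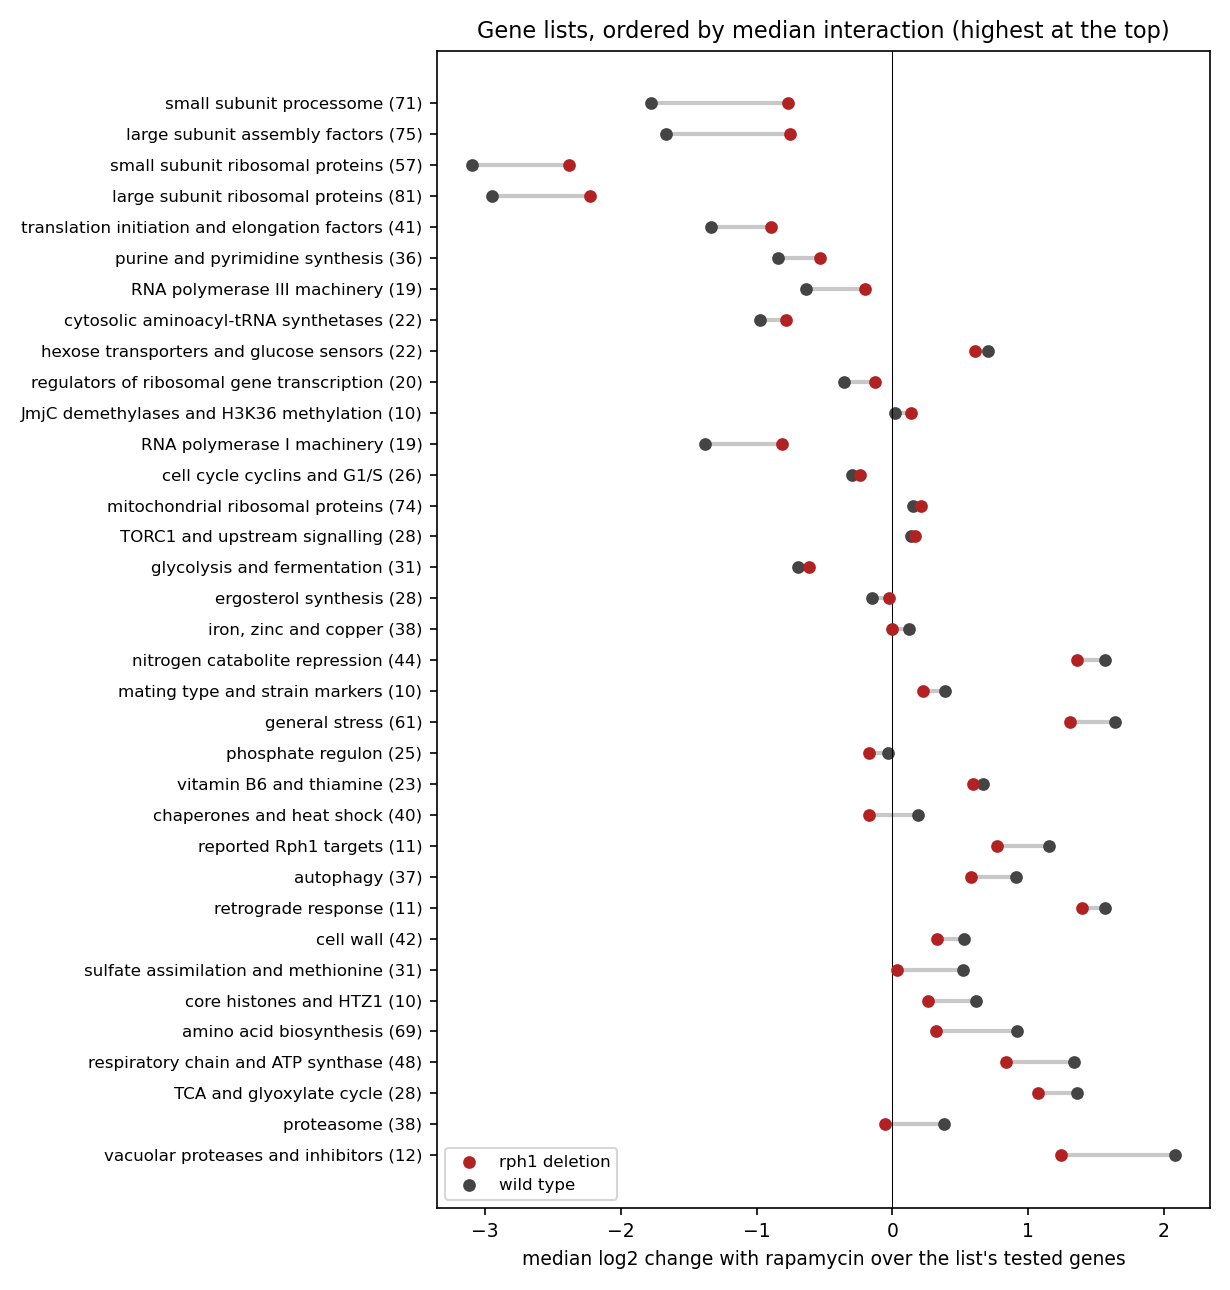
Median log2 change with rapamycin in the rph1 deletion (red) and the wild type (grey) for the 35 gene lists, ordered by median interaction; the number of genes tested stands in brackets. The wild type medians of the ribosome assembly and ribosomal protein lists lie to the left of the deletion medians, and those of the vacuolar protease, proteasome, respiratory and amino acid lists to the right.

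Of 61 general stress genes, 43 rose in the deletion and 51 in the wild type, beside 28.6% and 34.8% of all genes. In the interaction 10 were lower (16.4%) and 1, MSN4, higher (1.64%), beside 6.08% and 7.04% of all genes. In 9 of the 10 the genotypes differed more untreated, where the deletion was the higher (median 0.91 untreated, -0.23 with rapamycin). DDR48, induced by DNA damage, had 108 and 102 CPM in deletion cells with rapamycin and 127 and 128 CPM in untreated deletion cells, against 98.9 and 100.4 CPM in wild type cells with rapamycin and 58.6 and 51.4 CPM in untreated wild type cells. The drug-treated genotypes lay side by side, and the untreated deletion stood above the untreated wild type (interaction -1.14 ± 0.13, adjusted p = 0.00622). The untreated wild type libraries differed in these genes: without replicate 1 of that group the list had 22 lower and a median of -0.79, and without replicate 2 it had 7 lower and a median of 0.16, against -0.11 with all libraries. The count was 4 to 7 in the other fits. DDR48 kept its call in all 8, and MSN4, an activator of stress genes (0.63 ± 0.16, adjusted p = 0.0417, named after its values were seen), in none of them (adjusted p = 0.0542 to 0.135).

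Vacuolar proteases had the lowest median of the lists, -0.72, from 1.24 in the deletion and 2.08 in the wild type; 3 of 12 were lower, and 2 to 8 with a library left out. PEP4, the aspartic protease that activates the others, had 1306 and 1194 CPM in deletion cells with rapamycin and 757 and 672 CPM in untreated deletion cells, against 1359.8 and 1423 CPM in wild type cells with rapamycin and 321 and 257 CPM in untreated wild type cells (interaction -1.46 ± 0.19, adjusted p = 0.00771). CPS1, a carboxypeptidase, had -1.31 ± 0.15, adjusted p = 0.00627. Both stood higher in the untreated deletion than in the untreated wild type. Of 37 autophagy genes, 8 were lower (2 to 9) and 0 higher: ATG1, ATG13, ATG19, ATG33, ATG34, ATG36, ATG38 and ATG40. ATG1, the kinase that starts autophagy, had 41.5 and 52.2 CPM in deletion cells with rapamycin and 44.2 and 43.8 CPM in untreated deletion cells, against 74.8 and 83.2 CPM in wild type cells with rapamycin and 31.3 and 31.2 CPM in untreated wild type cells (interaction -1.25 ± 0.17, adjusted p = 0.00779). It did not pass the test with rapamycin in the deletion (0.09) and rose in the wild type (1.34). ATG33, of mitochondrial turnover, had -1.37 ± 0.17, adjusted p = 0.00707. In 5 of the 8 the genotypes differed more untreated. The genes called lower were 25% of the vacuolar list and 21.6% of the autophagy list, beside 6.08% of all genes. PEP4, CPS1, ATG1 and ATG33 kept their calls with any library left out.

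Of 11 genes reported elsewhere as targets of Rph1, 7 rose in the deletion and 8 in the wild type. Over all genes, 28.6% rose in the deletion and 34.8% in the wild type. In the interaction 1 of the 11, MAG1, was lower (9.09%), beside 6.08% of all genes. MAG1, a DNA glycosylase of base repair, had 57.3 and 64.8 CPM in deletion cells with rapamycin and 51.6 and 48.9 CPM in untreated deletion cells, against 77.7 and 73.0 CPM in wild type cells with rapamycin and 29.9 and 22.3 CPM in untreated wild type cells (interaction -1.26 ± 0.20, adjusted p = 0.0103). It stood higher in the untreated deletion than in the untreated wild type, and the groups with rapamycin lay close. With deletion rapamycin replicate 1 left out, its adjusted p was 0.0572. PHR1, the photolyase gene from which the protein has its name, had 0.03 ± 0.32, adjusted p = 0.959. The median of the list was -0.22.

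Proteasome genes lay below 0 without exception, 38 of 38, but by small amounts. Of them, 23.7% were called lower, beside 6.08% of all genes. The median was -0.43, from -0.06 in the deletion and 0.38 in the wild type, and 9 were lower (0 to 18 with a library left out, 0 without deletion rapamycin replicate 1). PRE6, a core subunit, had 178 and 192 CPM in deletion cells with rapamycin and 231 and 252 CPM in untreated deletion cells, against 356 and 365 CPM in wild type cells with rapamycin and 248 and 244 CPM in untreated wild type cells. It fell in the deletion and rose in the wild type (interaction -0.94 ± 0.13, adjusted p = 0.00779), and so did PUP3, another core subunit (interaction -0.73 ± 0.13, adjusted p = 0.0152). PRE6 lost its call in 1 fit (adjusted p = 0.0518) and PUP3 in 4 (up to 0.0895). Chaperones were mixed, with 2 of 40 higher (5%) and 5 lower (12.5%), beside 7.04% and 6.08% of all genes. Their median was -0.18, which was -0.68 without untreated wild type replicate 1 and 0.03 without replicate 2. The 2 higher were SSB1 (1.15 ± 0.17, adjusted p = 0.00919) and SSB2 (0.84 ± 0.19, adjusted p = 0.0267), near-identical copies that work at the ribosome. How reads were divided between these copies is uncertain. Lower was HSP31 (-1.42 ± 0.16, adjusted p = 0.00622), a stress protein, in all 8 fits; SSB1 lost its call in 1 (0.0518) and SSB2 in 6 (up to 0.109).

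In 28 of the 6169 genes rapamycin moved the genotypes in opposite directions, with each change past the test. All 28 were called in the interaction. The interaction subtracts these same 2 changes, so that count tests nothing further. The 11 that rose in the deletion and fell in the wild type included HXT2, SIC1 and DSE3, described above, and SPS4 (1.89 ± 0.31, adjusted p = 0.0114), a sporulation gene, and TIP1 (1.53 ± 0.26, adjusted p = 0.0122), a wall mannoprotein. The 17 that fell in the deletion and rose in the wild type included DDR48, MET14, PRE6 and PUP3. AHP1 (chromosome XII, 368781 to 369311), a peroxiredoxin, had the largest interaction of these. It had 2284 and 1988 CPM in deletion cells with rapamycin and 3181 and 3287 CPM in untreated deletion cells, against 2150.2 and 1749.6 CPM in wild type cells with rapamycin and 953 and 823 CPM in untreated wild type cells, which put the untreated deletion above all other groups (interaction -1.73 ± 0.22, adjusted p = 0.00707). EGO2, of the complex that anchors TORC1 at the vacuole, had -1.17 ± 0.23, adjusted p = 0.0175, and SAP4, a partner of the phosphatase Sit4, had -1.13 ± 0.17, adjusted p = 0.00878. AHP1 kept its call in all 8 fits; SPS4 (adjusted p = 0.0547), TIP1 (0.0631) and SAP4 (0.0518) lost theirs without deletion rapamycin replicate 1, and EGO2 lost its in 4 fits (up to 0.0895).

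Several lists held few or no calls. EGO2 was the only member called among 28 genes of TORC1 and its upstream signals, with a median of -0.0030. The 28 ergosterol genes had 0 calls in the main edgeR fit and 4 members at an unadjusted p under 0.05. Other settings called up to 4 higher and 2 lower. The 10 genes of the core histones and HTZ1 had 0 calls in the main edgeR fit, and up to 1 lower under other settings. In the main fit 1 member had an unadjusted p under 0.05, and all 10 lay below 0, with a median of -0.35. The 10 JmjC and H3K36 methylation genes had 0 calls in the main edgeR fit, and up to 2 higher and 1 lower under other settings. In the main fit 3 members had an unadjusted p under 0.05, and the median was 0.19. Among 38 genes for iron, zinc and copper, the zinc transporter gene ZRT2 was higher (0.90 ± 0.20, adjusted p = 0.0274) and the copper chaperone gene ATX1 lower (-0.78 ± 0.20, adjusted p = 0.041), lost in 5 and 7 of 8 fits (adjusted p up to 0.0991 and 0.138). Of the phosphate genes, PHO3 was the only one called out of 25. Among mating type and strain markers, HIS3 was lower, as given above. So was the agglutinin subunit gene AGA2 (-0.57 ± 0.12, adjusted p = 0.0253). HIS3 kept its call with any library left out, and AGA2 lost its call in 7 of 8 fits. At these replicate numbers a change that missed the threshold may still exist.

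The authors' lists of genes with FLAG-Rph1 enrichment, from other samples of the series, were set beside the interaction. They name 466 genes in untreated cells and 705 with rapamycin, of which 425 and 643 were tested. Of 167 genes listed untreated only, 66 were called higher (39.5%) and 1 lower (0.599%), with a median interaction of 0.74. Of 258 in both lists, 54 were higher (20.9%) and 9 lower (3.49%), with a median of 0.46. Of 385 listed with rapamycin only, 4 were higher (1.04%) and 74 lower (19.2%), with a median of -0.26. Among 5359 genes in neither list, 310 were higher (5.78%) and 291 lower (5.43%), with a median of 0.0026.

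Ribosomal protein genes supplied much of the untreated list, which held 136 of the 138. Without ribosomal protein and assembly genes, 29 of 86 genes listed untreated only were higher (33.7%) and 1 lower (1.16%). Genes from other lists of the translation machinery, such as RPG1, PRT1 and FRS1, were among the 29. Of the genes in both lists, 20 of 177 were then higher (11.3%) and 9 lower (5.08%), with a median of 0.066, against 0.46 with the ribosomal genes. The genes listed with rapamycin only held no ribosomal gene. Of the 10 largest negative interactions, ALD2, UGA2, SNZ1, GPP2, AHP1 and UGA1 were among these, and YPL264C, GSP2, GTT1 and SHC1 were in neither list. UGA2 had a fold enrichment of 292, AHP1 of 619 and ALD2 of 76.7 in the authors' rapamycin list. By contrast, 120 of 146 ribosome assembly genes were in neither list, and 93 of those 120 were called higher, ROK1 and UTP23 among them.

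Listed genes were also the more highly expressed and the more responsive ones. Per kilobase of gene, genes listed with rapamycin only had medians of 255 CPM in deletion cells with rapamycin, 144 in untreated deletion cells, 326 in wild type cells with rapamycin and 153 in untreated wild type cells. Those listed untreated only had 226 CPM in deletion cells with rapamycin, 745 in untreated deletion cells, 157 in wild type cells with rapamycin and 786 in untreated wild type cells. Over all 5760 genes with a length, the 4 medians lay between 50.2 and 52.3 CPM. The median change with rapamycin in the wild type was 0.78 for genes listed with rapamycin only and -2.56 for genes listed untreated only. The part that level and size of response had in the counts above was not tested. With deletion rapamycin replicate 1 left out, 8 genes listed untreated only remained higher and 16 listed with rapamycin only remained lower; over the other 7 fits these counts reached 80 and 93.

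**Figure D5:**
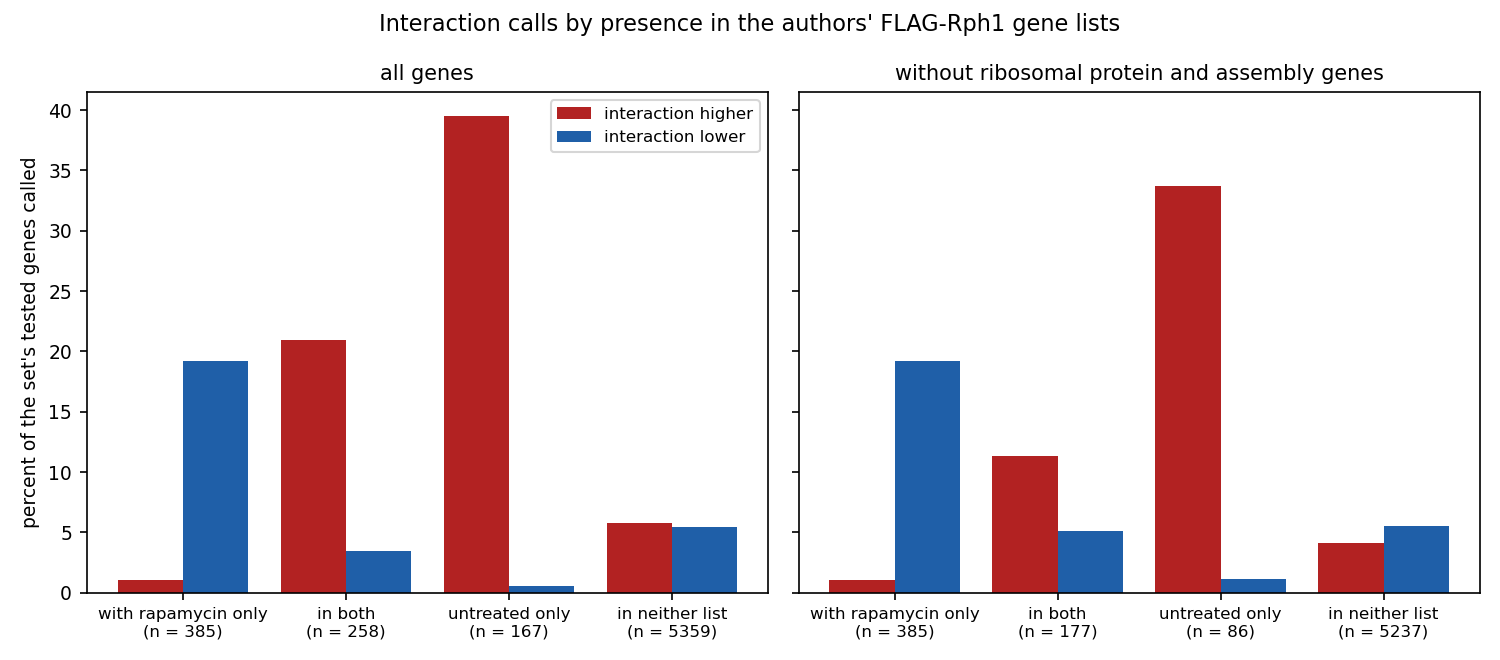
Percent of tested genes called higher (red) and lower (blue) in the interaction, by presence in the authors' FLAG-Rph1 gene lists, for all genes (left) and without ribosomal protein and assembly genes (right). Most genes of every set were not called; genes listed with rapamycin only were called lower more often than higher (19.2% against 1.04%), and genes listed untreated only higher more often than lower (39.5% against 0.599%).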

How the data were processed

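RNA was measured in 8 libraries, 2 in each of 4 groups, as total RNA. The deposited values are raw read counts per annotated entry, 7036 in every library. Per the submitters' processing notes, the series used Trimmomatic 0.38, STAR 2.5.3a, Bowtie2 2.3.4.3, featureCounts 1.6.3, DESeq2 1.24.0 and MACS2 2.2.1 with the build sacCer3. Which tool did which step, which annotation was used and whether counting was stranded are not given in the sources used here. How reads in overlapping genes were counted is therefore not known. The FLAG-Rph1 lists hold, per the file headers, a fold enrichment per gene made by the authors; it was used only to describe genes within a list. Of the entries, 5956 were named from the R64 gene table and 173 from these lists, and 907 kept their systematic name.

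Counts were filtered with filterByExpr (minimum count 10), scaled by TMM and fitted with edgeR 4.0.16 (R 4.3.3; glmQLFit, glmQLFTest, mean per group, all 8 libraries); the same code was first checked on simulated counts with known changes. For the interaction, the wild type change with rapamycin was subtracted from the deletion change; a gene was called at a Benjamini-Hochberg adjusted p under 0.05. The SE is the size of the log2 value divided by the square root of its F statistic. DESeq2 1.42.0, limma 3.58.1, other scalings and filters, a replicate block and each library left out were alternatives. Replicates differed beyond counting noise, so none was merged. A shift in total RNA per cell would not be seen, because values are scaled per library.

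Named by rule were RPH1, CCA1 and ADK2, and the 10 largest interactions each way with a mean of at least 10 CPM. So were up to 2 members per list by smallest p among those called, and the 5 largest each way among genes moving in opposite directions. Outside these rules, RPS28B, SNR70, LSR1, URA10, HXT7, CYS4, SAH1, PFK26 and SSB2 were named after their values were seen, as were the genes marked so above. PHR1 also falls outside these rules. The 35 lists (1196 genes tested) and the members were chosen with earlier results of these data known. No set test was run. Promoter motifs were not analysed here.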

Additional observations from a re-analysis of the deposited data

Results flagged for a closer look

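The rapamycin change differed between the deletion and the wild type by the test of the interaction term for 434 genes in the positive direction and 375 in the negative one. That difference between genotypes is also what set apart 76 of the named genes, whose log2 interactions (deletion change minus wild type change, edgeR, adjusted p under 0.05) were as follows.

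Among the named genes higher in the interaction, in descending order, the interaction was 2.65 for HXT6, 2.19 for HXT2, 2.08 for SNR37, 1.89 for SPS4, 1.87 for SNR44, 1.86 for YMR141W-A, 1.84 for SNR30, 1.79 for DBP2, 1.65 for PHO3 and 1.64 for YHB1. It was 1.53 for TIP1, 1.46 for PIR1, 1.42 for DSE3, 1.42 for ROK1, 1.37 for RRP8, 1.37 for ATO3, 1.29 for SDA1, 1.29 for UTP23, 1.24 for RPG1 and 1.24 for RPL22A. The next values were 1.19 for RPA49, 1.18 for DSE1, 1.18 for RPS3, 1.15 for SSB1, 1.13 for RPA135, 1.07 for SIC1, 1.04 for GUA1, 0.98 for RPS22A, 0.93 for GLN4 and 0.90 for ZRT2. These were followed by 0.89 for RPL18B, 0.87 for PRT1, 0.86 for PRS1, 0.84 for RPC53, 0.77 for RPC34, 0.62 for FRS1 and 0.49 for NAM9.

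Among the named genes lower in the interaction, the most negative first, the interaction was -2.91 for ALD2, -2.53 for UGA2, -2.50 for SNZ1, -2.32 for GPP2, -2.09 for YPL264C, -2.01 for GSP2, -1.97 for GTT1, -1.86 for UGA1, -1.84 for SHC1 and -1.73 for AHP1. It was -1.63 for GPM2, -1.58 for ADH5, -1.56 for MET14, -1.47 for IDP1, -1.46 for PEP4, -1.42 for HSP31, -1.37 for ATG33, -1.34 for LYS1, -1.31 for CPS1 and -1.26 for MAG1. The next values were -1.25 for ATG1, -1.24 for MET3, -1.19 for ATP18, -1.17 for EGO2, -1.16 for SNZ2, -1.14 for DDR48, -1.13 for SAP4, -1.10 for HIS3, -1.04 for PYC1 and -0.96 for ORT1. These were followed by -0.96 for CLN2, -0.94 for PRE6, -0.93 for RSM22, -0.84 for CYC1, -0.79 for DLD3, -0.78 for ATX1, -0.73 for PUP3, -0.71 for KGD2 and -0.57 for AGA2.

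Of these 76 genes, 37 kept the call in all 8 fits that left out 1 library, and 39 lost it in at least 1. No explanation of these differences was tested.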

How the results depend on the processing

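With 2 libraries per group, the calls rest on a spread shared by all genes and groups. With each library left out in turn, the genes called higher in the interaction ranged from 45 to 525 and those called lower from 51 to 495, against 434 and 375 with all libraries; a group then had 1 library, assumed to vary like the others. The corresponding ranges for rapamycin were 1279 to 1840 higher and 1282 to 1850 lower in the deletion, and 1860 to 2103 higher and 1745 to 2059 lower in the wild type. Adding the replicate number as a block gave 878 higher and 770 lower; same-numbered libraries deviated together from their group means in all 6 pairs of groups (correlations 0.226 to 0.658), but the labels do not say what a number marks, and what the correlations come from was not tested. Under the block, ribosomal protein genes called higher numbered 100 of 138 (52 without it), ribosome assembly genes 137 of 146 (112), initiation and elongation factors 22 of 41 (8), and proteasome genes called lower 20 of 38 (9). The 79 named genes kept their side of the threshold under the block. Scaling by library totals alone left the interaction at 427 and 382 but moved rapamycin in the deletion to 2987 higher and 871 lower, and genes lower in the wild type to 1335; the cause was not tested. DESeq2 gave 648 higher and 501 lower, and the other scalings, filters and tests 401 to 510 and 341 to 407. The genes called with all libraries kept their sign in every alternative in which they were tested. RPH1, not called, changed sign without deletion rapamycin replicate 1 (-0.25, adjusted p = 0.775) and reached 0.75 without replicate 2 of that group. Outside the left-out libraries, PYC1, FRS1, ATX1 and HXT6 lost their call under at least 1 setting, at an adjusted p of 0.0503 to 0.0521. Promoter motifs were not run.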
